A study of Mus musculus with 6 samples.

Results

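The semaphorin system was followed through 31 genes, namely 20 semaphorins, 9 plexins and 2 neuropilins, on 6 arrays of mouse embryonic eye tissue. The genes were taken by family membership, and each was represented by the probe set with the highest mean over the 6 arrays among those that the platform annotation gives to that gene alone. A mean log2 level of at least 5 was required, which 30 of the 31 genes met. In the whole series 12098 genes had a probe set of their own at this level. Of 45037 probe sets other than controls, 23591 reached it. Sema6b, a class 6 semaphorin gene, was the member below 5, at 4.59 ± 0.25 on albino arrays against 4.76 ± 0.37 on pigmented arrays (SD, n = 3 per genotype). The members just inside the threshold were Sema4a (mean of the 6 arrays 5.31), Sema5b (5.33) and Plxnb3 (5.48), and just outside it stood Sema6b (4.67).

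The arrays held 3 pools of the albino genotype and 3 pools of the control genotype, which is pigmented, all of embryos at embryonic day 13.5. Tissue of 3 to 4 littermates was joined for each pool, and the labels give the pools of a genotype as biological replicates. No gene, allele or strain behind the albino genotype is given in the labels. The tissue is labelled as retinal pigment epithelium (RPE), the cell sheet that normally carries pigment and backs the neural retina. The protocol tells of removing cornea, lens, retina and outer tissue, whereas the sample descriptions speak of a whole eye region.

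Semaphorins are guidance proteins that steer growing axons, migrating cells and vessel sprouts. Class 3 members are secreted, while classes 4 to 7 are held at the membrane. Plexins are the signalling receptors, with a cytoplasmic domain that acts on small GTPases and so on the cytoskeleton. Neuropilins bind most class 3 ligands and pass the signal on through a plexin partner, and they also bind vascular endothelial growth factors. In the developing eye the system is known from retinal axons, from layering of retinal neurites and from vessels.

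Markers of other tissues read above 5 in these pools, and some lists lay to one side between the genotypes. No marker gene above 5 passed an adjusted p of 0.05 in limma, as was so for all 23591 probe sets. RPE markers read above 5 for 8 of 9 genes (Rpe65 was below), with means of 10.33 to 10.52 on albino arrays and 10.48 to 10.75 on pigmented arrays. In albino 8 of 8 lay lower, where 63.5% of all probe sets lay higher. Between the arrays numbered 3 their means were near level, at 10.43 in albino and 10.48 in pigmented pools. Skeletal muscle markers lay higher in albino for 11 of 11 genes, against 63.5% of all probe sets. Their means were 8.24 to 8.93 on albino arrays and 6.81 to 7.67 on pigmented arrays. They stood closest between the arrays numbered 3, at 8.24 in albino and 7.67 in pigmented pools. Their signals summed over the genes gave log2 values of 12.74 to 13.48 on albino arrays and 11.12 to 12.12 on pigmented arrays. Neural retina markers (5 genes above 5, with Pou4f2 below) ran from 6.89 to 7.59 on albino arrays and from 7.34 to 7.87 on pigmented arrays. Of these 5 genes, 4 lay lower in albino and 1, Sfrp2, lay higher, by 0.037. Endothelial markers (6 of 6) averaged 7.71 in both genotypes. Lens markers stood at 5.85 on albino replicate 3 and at 8.47 to 8.95 on the other 5 arrays. The part of these markers in the differences below was not tested. In such bulk samples fewer cells of a type and less RNA per cell cannot be told apart. The replicate 1 arrays of both genotypes stood apart from the other 4 arrays, so results are also given for arrays of the same number.

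No semaphorin, plexin or neuropilin passed the test between albino and pigmented pools. In limma, 0 of the 30 members passed an adjusted p of 0.05, as did 0% of all 23591 probe sets tested, and the adjusted p of every member was 0.999. At an unadjusted p under 0.05 there were 0 of 30 members, against 4.68% of all probe sets (3.22% higher in albino and 1.46% lower). The largest difference in size was that of Sema5b, at -0.38 on the log2 scale, and 25 of the 30 members differed by less than 0.2, as did 82.5% of all probe sets. The 95% confidence interval lay inside a 2-fold change in either direction for 28 members and inside a 1.5-fold change for 21, and smaller differences could not be resolved with these arrays.

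The members were split in direction. Of the 30, 14 lay higher and 16 lower in albino pools, with a median difference of -0.02, whereas 63.5% of all probe sets lay higher, with a median of 0.047. Without albino replicate 1 the number higher was 7, against 49.6% of all probe sets. Without both replicate 1 arrays it was 13, against 61.1%. Median centring here means centring each array on the median of its tested probe sets, those with a mean of at least 5. After it the number was 9, against 40.3%. The genotypes did not overlap for 2 of 30 members, Sema3e (higher in albino) and Plxna1 (lower), against 10.8% of all probe sets (7.39% higher in albino and 3.44% lower).

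**Figure D1:**
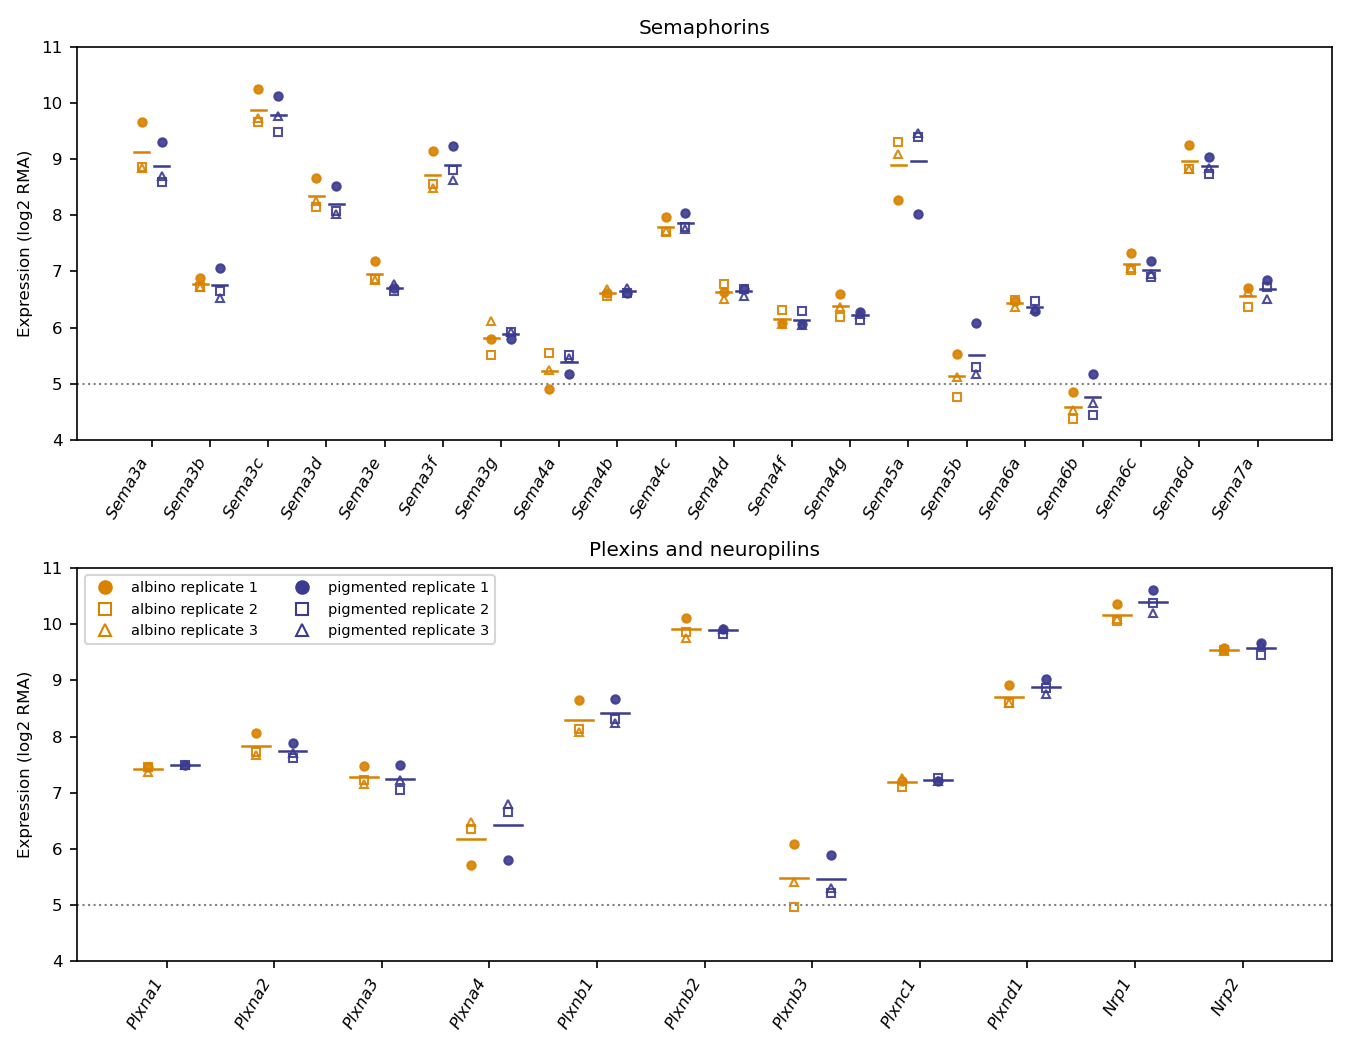
Expression (log2 RMA values) of the 31 genes on each array, with albino pools in orange to the left of pigmented pools in blue, symbols for the replicate number, horizontal bars for the mean of 3 arrays and a dotted line at the threshold of 5. The genotypes overlap for all genes at or above the threshold except Sema3e and Plxna1, and the filled replicate 1 symbols lie above the others for Sema3a and below them for Sema5a and Plxna4.

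**Figure D2:**
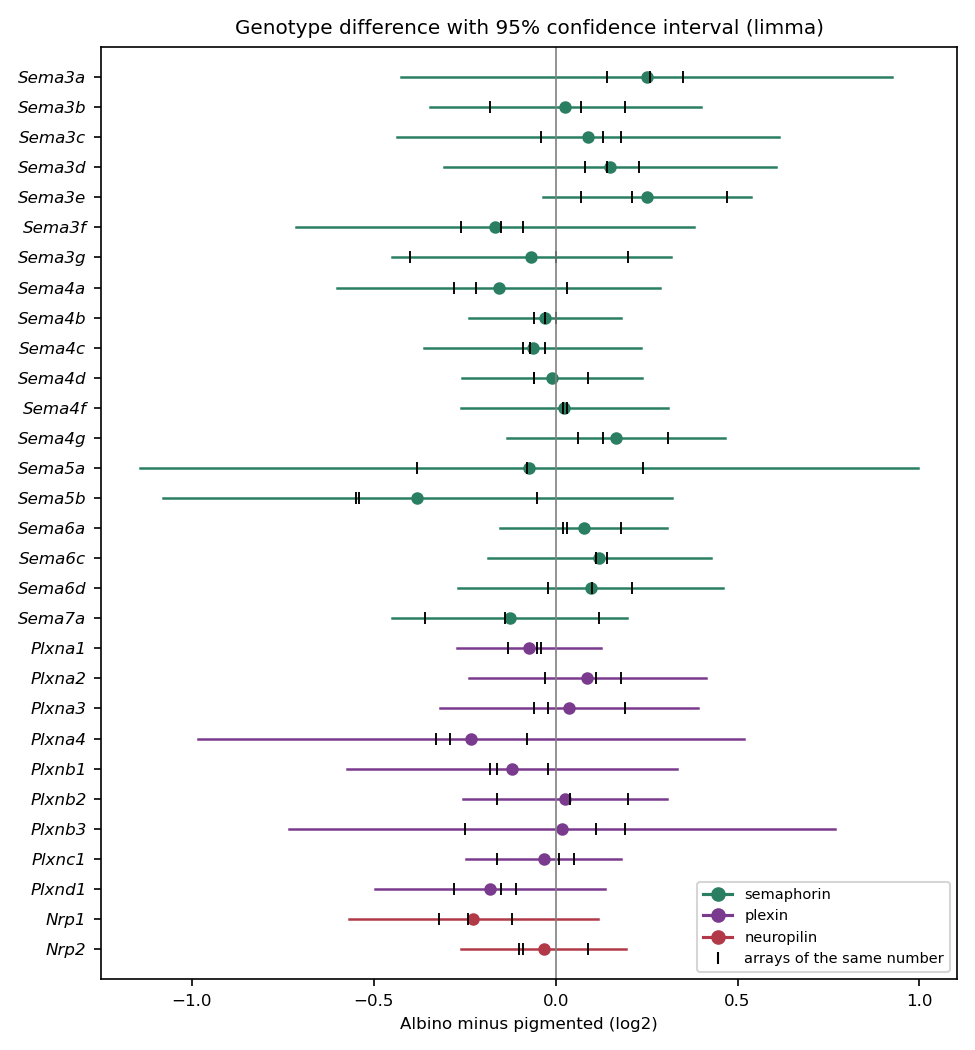
Albino minus pigmented difference (log2) of the 30 members at or above 5, with the limma 95% confidence interval as a bar and the 3 differences between arrays of the same number as ticks. Every interval crosses 0, and all 3 ticks lie above 0 for 7 members, among them Sema3a and Sema3e, and below 0 for 8, among them Sema5b, Plxna4, Plxnd1 and Nrp1.

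Pairing the arrays by number narrowed the errors. With the replicate number as a block, 0 of 30 members passed the adjusted threshold (smallest adjusted p in limma 0.208), while 7 had an unadjusted p under 0.05, against 18.0% of all probe sets (11.9% higher in albino and 6.12% lower). Of the 7, Sema3a and Sema3e lay higher in albino pools, and Sema3f, Sema5b, Plxna4, Plxnd1 and Nrp1 lay lower. All 3 same-number differences were above 0 for 7 members (29.1% of all probe sets) and below 0 for 8 members (13.3%).

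Among the secreted class 3 ligands, 5 of 7 lay higher in albino pools, with a median of 0.09, where 63.5% of all probe sets lay higher. Without albino replicate 1 this was 1 of 7, against 49.6% of all probe sets. Without both replicate 1 arrays it was 5 of 7, with a median of 0.13, against 61.1%. Sema3a, the classical repellent of sensory axons that acts through neuropilin 1, read 9.66, 8.86 and 8.85 on albino arrays, against 9.31, 8.60 and 8.71 on pigmented arrays. The replicate 1 array was the highest in both genotypes, and the genotypes overlapped. The difference was 0.25 (SE 0.28), or 0.35, 0.26 and 0.14 between arrays of the same number. The adjusted p with the replicate block was 0.208. Without albino replicate 1 the difference was -0.018, and without pigmented replicate 1 it was 0.47. Without both replicate 1 arrays it was 0.2 (limma adjusted p = 0.364).

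The other 2 Sema3a probe sets also lay higher in albino pools. Probe set 1449865_at read 7.40, 7.54 and 7.37 on albino arrays, against 6.96, 6.95 and 7.15 on pigmented arrays, so the genotypes did not overlap there. Its difference was 0.42 (SE 0.10), with a limma adjusted p of 0.728. Probe set 1420417_at gave 0.27 (SE 0.36). With the 3 probe sets averaged, the difference of Sema3a was 0.31 (limma adjusted p = 0.648).

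Sema3e, which binds plexin D1 without a neuropilin and is known from vessel patterning, was the member with the smallest p of the fit. It read 7.18, 6.86 and 6.85 on albino arrays, against 6.71, 6.65 and 6.78 on pigmented arrays. The lowest albino pool lay above the highest pigmented pool. The difference of 0.25 (SE 0.12, 95% confidence interval -0.036 to 0.54) was 0.14 without albino replicate 1 and 0.22 to 0.31 when any other array was left out. The adjusted p was 0.999, or 0.261 with the replicate block. Its 2 other probe sets above 5 gave 0.35 and 0.25.

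Sema3d, a class 3 ligand studied in heart and vessel development, read 8.66, 8.15 and 8.25 on albino arrays, against 8.52, 8.07 and 8.02 on pigmented arrays. The genotypes overlapped, and the difference was 0.15 (SE 0.19), or -0.0033 without albino replicate 1 and 0.155 without both replicate 1 arrays. Sema3c, which guides neural crest cells into the cardiac outflow tract, stood at 9.88 ± 0.32 on albino arrays against 9.79 ± 0.32 on pigmented arrays (SD, n = 3 per genotype). Its difference of 0.09 was -0.095 without albino replicate 1, -0.065 without pigmented replicate 2 and 0.07 without both replicate 1 arrays. Its second probe set gave 0.45 (SE 0.17). That probe set, 1420696_at, read 5.97, 6.39 and 6.0 on albino arrays, against 5.46, 5.60 and 5.95 on pigmented arrays, and the genotypes did not overlap.

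Sema3a, Sema3c, Sema3d and Sema3e all lie on mouse chromosome 5, a grouping that was not among the planned results. In the deposited scaling, after median centring and after cyclic loess, 4 of 4 lay higher in albino pools. Of all probe sets, 63.5%, 40.3% and 53.2% lay higher in these settings in turn. Without albino replicate 1, only Sema3e (1 of 4) lay higher, against 49.6% of all probe sets. Without pigmented replicate 2, 3 of 4 did, against 56.3%, and without both replicate 1 arrays 4 of 4 did, against 61.1%. The skeletal muscle markers also lay higher in albino pools, and their part in these values was not tested. The remaining class 3 genes were near level or lower. Sema3b stood at 6.78 ± 0.095 on albino arrays against 6.75 ± 0.28 on pigmented arrays (SD, n = 3 per genotype), and its sign turned after median centring (-0.047) and cyclic loess (-0.025). The 2 other Sema3b probe sets gave -0.12 and -0.020. Sema3g, a vessel-derived ligand of neuropilin 2, stood at 5.81 ± 0.30 on albino arrays against 5.88 ± 0.069 on pigmented arrays (SD, n = 3 per genotype). Sema3f, the main repellent acting through neuropilin 2, stood at 8.72 ± 0.36 on albino arrays against 8.89 ± 0.31 on pigmented arrays (SD, n = 3 per genotype), or -0.17. That value comes from a probe set ending in _x_at, which may bind other transcripts, and the 2 other Sema3f probe sets gave 0.043 and -0.027.

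The promoters of Sema3a and Sema3e are shown because these ligands had the largest differences on the higher side. RefSeq gives them in build GRCm38.p6, from 250 bases before to 50 bases after the gene start, at chr5:13396534-13396833 and chr5:14025026-14025325, both on the plus strand. Capitals mark the E-box CANNTG, the motif of basic helix-loop-helix factors, which reads alike on both strands.
Sema3a: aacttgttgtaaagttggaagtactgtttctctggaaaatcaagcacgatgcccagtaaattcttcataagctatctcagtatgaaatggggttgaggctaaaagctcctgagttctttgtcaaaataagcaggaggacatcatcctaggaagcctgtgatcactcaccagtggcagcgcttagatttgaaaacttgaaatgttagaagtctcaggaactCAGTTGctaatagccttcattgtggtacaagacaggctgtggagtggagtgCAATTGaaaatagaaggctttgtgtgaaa
Sema3e: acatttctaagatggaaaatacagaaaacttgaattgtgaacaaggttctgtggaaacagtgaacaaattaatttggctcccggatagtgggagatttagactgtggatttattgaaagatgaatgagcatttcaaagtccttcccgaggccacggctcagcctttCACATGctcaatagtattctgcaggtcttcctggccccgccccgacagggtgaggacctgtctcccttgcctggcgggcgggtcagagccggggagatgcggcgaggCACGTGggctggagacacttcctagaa
Sema3a holds CAGTTG and CAATTG, starting at -30 and 22 from the gene start, and Sema3e holds CACATG and CACGTG at -84 and 24. Of all 32851 promoters of that length, 72.3% hold a CANNTG, 7.15% a CACGTG and 14.2% a CATGTG or its reverse complement CACATG, where the last 3 are also forms of CANNTG. These letters are a description of the window only. Among the listed genes, 26 had a promoter in the table, with 37 windows, of which 21 held a CANNTG.

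The membrane-bound ligands of classes 4 to 7 showed no common direction, with 5 of 12 higher in albino pools and a median of -0.02. Of all probe sets, 63.5% lay higher. Sema4g, a ligand of plexin B2 in the mouse, read 6.59, 6.19 and 6.37 on albino arrays, against 6.28, 6.13 and 6.24 on pigmented arrays. The difference was 0.17 (SE 0.13), and albino replicate 2 lay inside the pigmented range. Sema4a, a ligand required for photoreceptor survival in mouse retina, stood at 5.23 ± 0.33 on albino arrays against 5.39 ± 0.18 on pigmented arrays (SD, n = 3 per genotype), or -0.16. Its sign turned without albino replicate 1 (0.0083).

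The other class 4 genes differed by less than 0.07 in size. Sema4b averaged 6.62 in albino and 6.65 in pigmented pools, and Sema4c, which acts on plexin B2, averaged 7.80 in albino and 7.86 in pigmented pools. Sema4d, a semaphorin also known from immune cells, averaged 6.64 in albino and 6.65 in pigmented pools. Sema4f averaged 6.16 in albino and 6.13 in pigmented pools, and its second probe set gave -0.14.

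Sema5b, which with Sema5a keeps retinal neurites in their layers in the mouse, had the largest difference of any member. It read 5.53, 4.76 and 5.12 on albino arrays, against 6.08, 5.30 and 5.17 on pigmented arrays. The genotypes overlapped, and albino replicate 2 was below the threshold of 5. The difference was -0.38 (SE 0.29), or -0.55, -0.54 and -0.05 between arrays of the same number, with an adjusted limma p of 0.228 with the replicate block. The arrays of number 3 were nearly level, and without pigmented replicate 1 the difference was -0.098. Neural retina markers differed between albino and pigmented pools by -0.36 in their mean, and their part in the Sema5b values was not tested.

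Sema5a stood at 8.89 ± 0.55 on albino arrays against 8.96 ± 0.81 on pigmented arrays (SD, n = 3 per genotype). Its replicate 1 arrays stood apart, at 8.27 in albino and 8.03 in pigmented pools against 9.09 to 9.47 on the other 4. Leaving out single arrays gave -0.54 to 0.24.

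Class 6 ligands lay slightly higher in albino pools for 3 of 3 genes above 5, against 63.5% of all probe sets, and none passed. Sema6d, a ligand of plexin A1 at the optic chiasm in the mouse, averaged 8.97 in albino and 8.87 in pigmented pools, and its difference of 0.097 was -0.043 without albino replicate 1. Sema6c averaged 7.14 in albino and 7.02 in pigmented pools, and Sema6a, the ligand of plexins A2 and A4, averaged 6.44 in albino and 6.37 in pigmented pools. Their second probe sets had the opposite sign, at -0.06 for Sema6c and -0.03 for Sema6a. Sema7a, anchored to the membrane by a lipid and known as a ligand of plexin C1 and of integrins, averaged 6.57 in albino and 6.69 in pigmented pools.

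Among the receptors, 7 of 11 plexin and neuropilin genes lay lower in albino pools, with a median of -0.033. The number lower was 11 without albino replicate 1, 9 without both replicate 1 arrays, 10 after median centring and 9 after cyclic loess. With all probe sets of a gene averaged it was 5. Of all probe sets, 63.5% lay higher in the main fit, 49.6% without albino replicate 1 and 61.1% without both replicate 1 arrays. After median centring 40.3% lay higher, after cyclic loess 53.2%, and with probe sets averaged 66.7% of all genes. Nrp1, the neuropilin that binds Sema3a and the growth factor VEGF-A, read 10.37, 10.06 and 10.09 on albino arrays, against 10.61, 10.38 and 10.21 on pigmented arrays. In each numbered pair the albino array was the lower, although the genotypes overlapped. The difference was -0.23 (SE 0.14, 95% confidence interval -0.57 to 0.12). With the replicate block the limma adjusted p was 0.219.

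The size of this difference was not shared by the other probe sets of Nrp1, and 2 of them had the opposite sign. The other 3 Nrp1 probe sets above 5 gave 0.053, 0.017 and -0.020, and with all 4 averaged the difference was -0.044. Nrp2, the co-receptor preferred by Sema3f, read 9.57, 9.54 and 9.53 on albino arrays, against 9.66, 9.45 and 9.63 on pigmented arrays. The genotypes overlapped, with a difference of -0.033 (SE 0.095, 95% confidence interval -0.26 to 0.19), and 1 of its 3 other probe sets, 1426528_at, gave 0.18.

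Plxnd1, the receptor of Sema3e and a marker of growing vessels, read 8.92, 8.59 and 8.60 on albino arrays, against 9.03, 8.87 and 8.75 on pigmented arrays. Albino arrays were lower in every numbered pair, with differences of -0.11, -0.28 and -0.15, and only albino replicate 1 reached into the pigmented range. The difference was -0.18 (SE 0.13), or -0.29 without albino replicate 1 and -0.11 without pigmented replicate 1. Its limma adjusted p was 0.252 with the replicate block, 0.753 after cyclic loess and 0.362 without both replicate 1 arrays. Of the 6 endothelial markers 3 lay higher and 3 lower in albino pools, and their part in the Plxnd1 values was not tested.

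The A-type plexins, which partner with neuropilins, were split in sign, with 2 higher and 2 lower in albino pools. Plxna4 read 5.72, 6.36 and 6.47 on albino arrays, against 5.80, 6.65 and 6.80 on pigmented arrays, with both replicate 1 arrays lowest. Its difference of -0.23 (SE 0.31) was -0.31 without both replicate 1 arrays (limma adjusted p = 0.357) and -0.0017 without albino replicate 1 alone. Plxna1 read 7.45, 7.45 and 7.36 on albino arrays, against 7.50, 7.49 and 7.49 on pigmented arrays. The genotypes did not overlap, but the difference was -0.073 (SE 0.083). Plxna2 averaged 7.82 in albino and 7.74 in pigmented pools, and its 3 other probe sets lay higher in albino too, by 0.16 to 0.26. Plxna3, an X-linked gene, averaged 7.29 in albino and 7.25 in pigmented pools.

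The B and C plexins differed by no more than 0.12 in size. Plxnb1, the receptor of Sema4d, averaged 8.29 in albino and 8.41 in pigmented pools, but its second probe set had the opposite sign (0.08). Plxnb2, a receptor of several class 4 ligands, averaged 9.92 in albino and 9.89 in pigmented pools. X-linked Plxnb3, a receptor of Sema5a, averaged 5.48 in albino and 5.47 in pigmented pools. Plxnc1, the receptor of Sema7a also known from human melanocytes, averaged 7.19 in albino and 7.22 in pigmented pools, and its second probe set gave 0.060. The mix of sexes was not the same in every pool, since Y-linked probe sets averaged 7.06 to 7.99 on albino arrays and 2.32 to 7.39 on pigmented arrays.

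The promoters of Nrp1 and Plxnd1 are shown as those of the receptors matched to Sema3a and Sema3e. They lie at chr8:128358823-128359122 on the plus strand and chr6:115994956-115995255 on the minus strand of GRCm38.p6, as given by RefSeq. They hold no CANNTG, so no letters are in capitals.
Nrp1: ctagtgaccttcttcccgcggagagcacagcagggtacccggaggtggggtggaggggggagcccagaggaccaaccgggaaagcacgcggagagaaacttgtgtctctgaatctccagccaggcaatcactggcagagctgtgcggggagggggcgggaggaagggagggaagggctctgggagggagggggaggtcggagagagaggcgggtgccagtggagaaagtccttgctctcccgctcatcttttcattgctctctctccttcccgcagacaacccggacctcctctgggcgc
Plxnd1: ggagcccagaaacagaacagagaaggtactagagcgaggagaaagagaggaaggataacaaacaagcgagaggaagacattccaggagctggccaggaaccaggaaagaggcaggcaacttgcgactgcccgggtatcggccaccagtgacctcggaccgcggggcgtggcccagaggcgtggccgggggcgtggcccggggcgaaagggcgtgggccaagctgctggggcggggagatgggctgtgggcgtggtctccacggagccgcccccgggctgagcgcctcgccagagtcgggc
The G or C share of these windows is 64.0% for Nrp1 and 67.0% for Plxnd1, against 41.3% for Sema3a and 50.7% for Sema3e and a median of 52.7% over all promoters.

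Every ligand above 5 with a receptor named in the list of pairs, drawn from general knowledge, had each of its receptors above 5. This follows from the receptor levels, since all 11 plexin and neuropilin genes were above 5. The list held 35 pairs for 17 ligands above 5, and the 1 other ligand, Sema6b, was below. In 15 of the 35 pairs the ligand lay higher and the receptor lower in albino pools, in 8 the reverse held, in 4 both were higher and in 8 both were lower. Without albino replicate 1 these counts were 12, 0, 0 and 23, and after median centring 15, 0, 2 and 18. Without both replicate 1 arrays they were 18, 3, 3 and 11. With all probe sets of a gene averaged they were 12, 12, 5 and 6, so neither opposite direction was the more frequent. The pairs share genes, since Nrp1 and Plxnd1 each serve several ligands, so these counts are not independent. The widest such gap was for Sema3a (0.25) with Plxna4 (-0.23) and Nrp1 (-0.23), followed by Sema3e (0.25) with Plxnd1 (-0.18). With its probe sets averaged, Nrp1 differed by -0.044. None of these values passed the adjusted threshold.

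**Figure D3:**
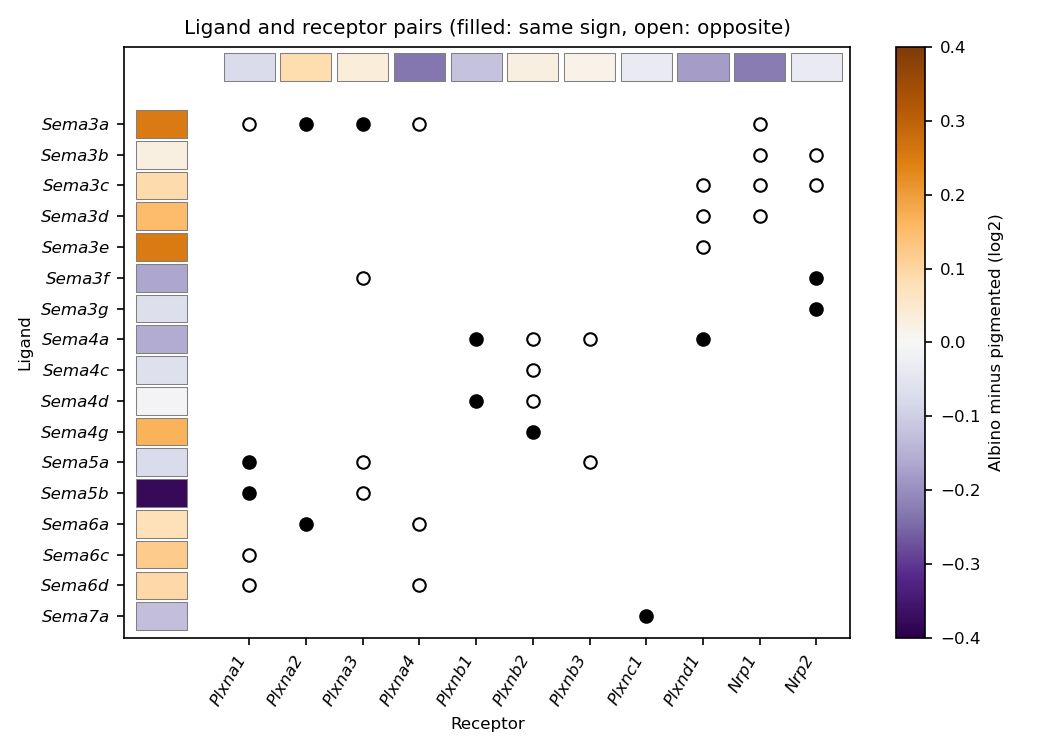
Ligands (rows) and receptors (columns) above 5, with a circle for each of the 35 pairs, filled where both genes differ in the same direction and open where they differ in opposite directions. The coloured squares give the albino minus pigmented difference (log2) of each gene, and Nrp1 and Plxnd1 (both lower in albino) meet Sema3c and Sema3d (both higher) in open circles.

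The replicate 1 arrays, which were singled out because they stood apart, differed from the others in most members. For 25 of 30 members, and for 75.9% of all probe sets, the replicate 1 arrays lay farther from the mean of the other 4 than albino pools lay from pigmented pools. Both replicate 1 arrays lay above the other 4 for 14 members (43.5% of all probe sets) and below them for 3 members (15.7%), namely Sema4a, Sema5a and Plxna4. The shift ran from -1.17 for Sema5a to 0.77 for Plxnb3.

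Probe sets of the same gene could shift in opposite directions. Of 14 members with several probe sets above 5, Sema3a, Sema5a and Plxna2 had a probe set in which both replicate 1 arrays were the highest and another in which they were the lowest. In Sema3a the probe set 1420416_at lay 0.73 higher on the replicate 1 arrays and 1420417_at lay -0.92 from the others, while in Plxna2 1455037_at gave 0.29 and 1429772_at -1.22. The genotype difference had the same sign in all probe sets of 5 of the 14 genes, Plxna2, Sema3a, Sema3c, Sema3e and Sema5a. Over the 54 member probe sets above 5, 2 had an unadjusted limma p under 0.05, both named above, against 4.68% of all probe sets, and 0 passed the adjusted threshold.

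**Figure D4:**
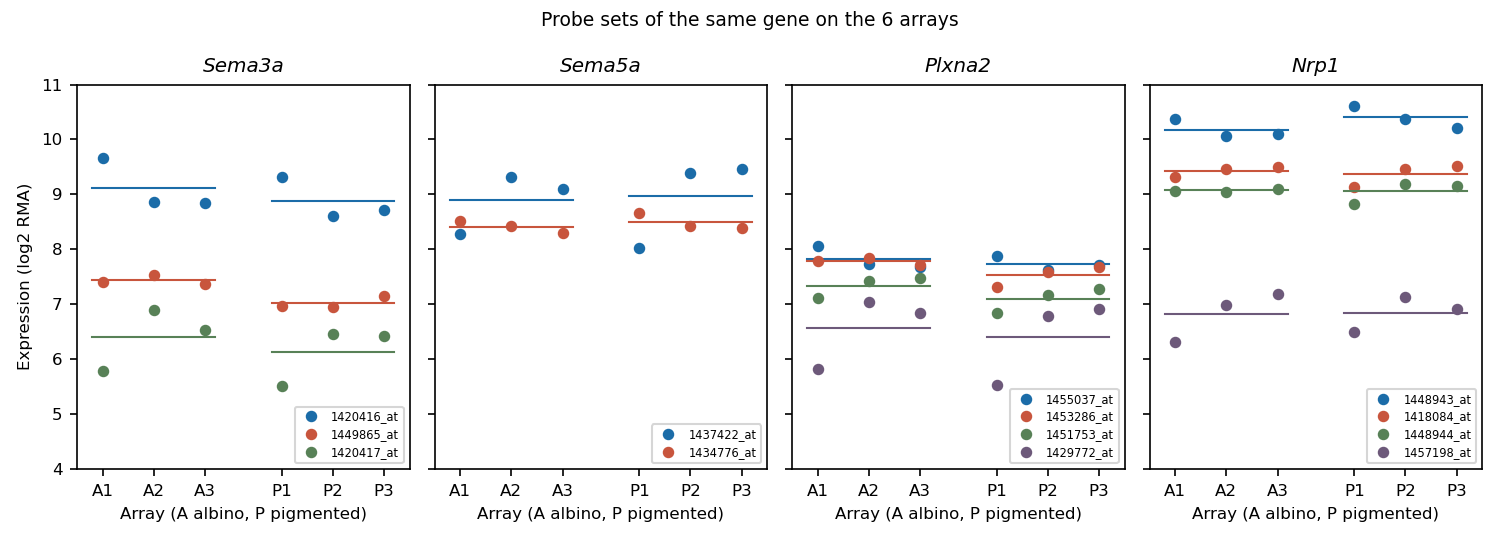
Expression (log2 RMA values) of every probe set above 5 of Sema3a, Sema5a, Plxna2 and Nrp1 on the 3 albino arrays (A1 to A3) and the 3 pigmented arrays (P1 to P3), with a horizontal line for each mean of 3 arrays. The 3 Sema3a probe sets lie higher in albino pools, while replicate 1 arrays are highest in 1420416_at and lowest in 1420417_at.

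Genes that act with or below plexins and neuropilins were read from a list of 49, of which 41 were above 5. Rhod, Pak1 and Rock2 had no probe set of their own and so were not measured here, and the rest were below 5. At an unadjusted p under 0.05 there were 0 of 41 in limma, against 4.68% of all probe sets, and 8 with the replicate block, against 18.0%, while 0 passed the adjusted threshold in either fit. Of the 41, 28 lay higher and 13 lower in albino pools, with a median of 0.043, beside 63.5% higher and a median of 0.047 over all probe sets. The 11 receptor partners above 5 ran from -0.02 to 0.18, and the immune receptors Cd72 and Timd2 were below 5. Rnd3, a small GTPase, had the smallest p of the list, and it was picked for that after its value was seen. It read 10.59, 10.54 and 10.3 on albino arrays, against 10.31, 10.16 and 10.21 on pigmented arrays, a difference of 0.25 (SE 0.11, limma adjusted p = 0.999).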

How the data were processed

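Expression was measured on 6 Affymetrix arrays. Per the labels' protocols, 100 ng of total RNA per pool was turned into biotinylated cRNA by a 3' priming kit. The authors deposited log2 values, for which the submitters' processing notes name RMA and Affymetrix Expression Console 1.1. RMA corrects background, quantile normalizes and summarises probe sets, so every difference is relative to the rest of the array. A joint or separate run for the arrays is not stated in the labels. Precision is limited by having 3 arrays per genotype.

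The table holds 45101 probe sets, 64 of them controls. The annotation names 1 gene for 34945, several for 932 and none for 9160. Probe sets with a mean of at least 5 (23591) were fitted by lmFit and eBayes of limma 3.58.1 (R 4.3.3) as albino minus pigmented, two-sided, and adjusted over all of them by Benjamini-Hochberg. A marker gene of the neural retina is not reported here. All p-values come from limma fits. Only the fit without the replicate block was run on simulated data, with noise drawn independently for each array. The simulated arrays held no shared replicate 1 shift, so the run does not speak for the other fits. Without the replicate block the p-values rest on the spread between pools of a genotype. With it they rest on the spread of the differences between arrays of the same number. In every fit eBayes draws the variance of a probe set toward that of all probe sets.

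Members, pathway genes, pairs and marker lists were chosen with earlier results of these data known. Every member was named, and array values were given for those with an unadjusted p under 0.05 (none), the 4 with the largest difference in each direction, Nrp1 and Nrp2; others given array by array were chosen after their values were seen. Deviations from the genotype means correlated at 0.863, 0.687 and 0.448 between arrays numbered 1, 2 and 3, which was read as pairing by number, a reading that the labels do not give. Albino replicate 2 correlated more with pigmented replicate 3 (0.693), and albino replicate 3 more with pigmented replicate 2 (0.546), so of the albino arrays only replicate 1 was best matched by its own number. Alternatives were a replicate block, leaving out each array, other filters, scalings and probe set rules, and, added after seeing the data, leaving out both replicate 1 arrays.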

Additional observations from a re-analysis of the deposited data

How the results depend on the processing

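The members past the adjusted threshold numbered 0 under every alternative run, as did all probe sets. Members with an unadjusted p under 0.05 numbered 0 when single arrays were left out, 7 with the replicate block, 1 after median centring (Nrp1), 2 after cyclic loess (Nrp1 and Plxnd1), 1 with probe sets averaged (Sema3a) and 5 without both replicate 1 arrays. The share of all features with such a p was 2.4 to 6.01% without single arrays, 18.0% with the block, 6.54% after median centring, 6.18% after cyclic loess, 5.28% with probe sets averaged and 12.9% without both replicate 1 arrays. Members higher in albino numbered 7 to 18 of 30 when single arrays were left out, 13 without both replicate 1 arrays and 9 after median centring. The share of all probe sets higher was 49.6 to 67.7%, 61.1% and 40.3% in turn. Of the 41 pathway genes, set against the same shares, those with an unadjusted p under 0.05 numbered 0 to 1 without single arrays, 8 with the replicate block, 1 without a filter (share 3.37%), 2 after median centring, 3 after cyclic loess, 1 with a trended and robust prior (share 4.4%), 1 with probe sets averaged and 5 without both replicate 1 arrays. The median over all probe sets was 0.047, and was -0.027 after median centring and 0.010 after cyclic loess.

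The sign did not turn under any alternative run for 11 of 30 members, among them Sema3e, Sema4g, Sema5b, Plxna1, Plxna4, Plxnd1 and Nrp1, and turned under at least 1 for 19. The replicate block, the other filters and the trended and robust prior leave a difference unchanged, so they could not turn a sign. Sema4g, Sema5b, Plxna1, Plxna4 and Plxnd1 have only 1 probe set above 5, so the other probe set rules could not turn theirs either. For Nrp1, 2 of the other probe sets taken alone had the opposite sign. With single arrays left out, the turned members ranged as follows. Sema3a ran from -0.018 to 0.47, Sema3b from -0.085 to 0.19, Sema3c from -0.095 to 0.26, Sema3d from -0.0033 to 0.31, Sema3f from -0.38 to 0.0033 and Sema3g from -0.22 to 0.080. Sema4a ran from -0.32 to 0.0083, Sema4c from -0.15 to 0.025, Sema4d from -0.077 to 0.053, Sema4f from -0.058 to 0.10, Sema5a from -0.54 to 0.24 and Sema6d from -0.043 to 0.18. Plxna2 ran from -0.032 to 0.16, Plxna3 from -0.068 to 0.16, Plxnb1 from -0.30 to 0.0083, Plxnb2 from -0.075 to 0.11, Plxnb3 from -0.28 to 0.28, Plxnc1 from -0.068 to 0.012 and Nrp2 from -0.098 to 0.0067. Median centring gave Sema3b -0.047, Sema4f -0.050, Plxna3 -0.037, Plxnb2 -0.047 and Plxnb3 -0.057, and cyclic loess gave Sema3b -0.025, Sema4f -0.013, Plxna3 -0.020 and Plxnb2 -0.0012. Averaged probe sets gave Sema3b -0.038, Sema4f -0.060, Plxnc1 0.013 and Nrp2 0.018. With _x_at and _s_at probe sets left out, Sema3f was 0.043 and Sema4f -0.14. Without both replicate 1 arrays Sema4d was 0.015, Plxnb2 -0.060 and Plxnb3 -0.070. The cause of these turns was not tested. The replicate block changed no adjusted call.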
